A study of Mus musculus with 9 samples.

Results

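The 44 genes described here are mouse genes of cholesterol and fatty acid metabolism. They were chosen by name from what they are known to do, with earlier results of these data known. All 44 were among the 14108 genes counted in 9 primary tumours. By role they fall into 4 regulators of sterol-responsive transcription, 19 genes of sterol synthesis and transport, 4 of fatty acid synthesis, 7 of desaturation and elongation, 4 of fatty acid activation and lipid droplets, 3 of oxidation and 3 of uptake and binding. RNA was measured in tumours of 3 models, HR1, LM1 and LM9, with 3 tumours in each. HR1 is a non-metastatic mammary cancer line from a mouse with mutant PIK3CA under the CAG promoter. LM1 and LM9 are 1 line each, grown out from lung metastases of HR1 cells in which a doxycycline-inducible piggyBac transposon had been mobilized, and the study treats them as models of high *Nfib* expression and HR1 as a model of low expression. Whether the HR1 cells of these tumours held the transposon is not given in the labels. For all 3 models 250000 cells were placed in the mammary fat pad of female NOD/SCID mice (NOD.CB17-Prkcd<scid>/J as the labels spell it, although the scid mutation lies in *Prkdc*) aged 4 to 8 weeks, tumours were taken before 1500 mm3, and GFP+ cells were sorted before RNA extraction. NOD/SCID mice lack mature B and T cells but keep other leukocytes and stroma.

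Cells adjust the synthesis of sterols and fatty acids through the SREBP transcription factors, which are made as precursors in the endoplasmic reticulum membrane. SCAP escorts the precursors to the Golgi for cleavage when sterols are low, and INSIG proteins hold SCAP back when sterols are plentiful. The cleaved factors enter the nucleus and raise transcription of genes of the mevalonate and sterol pathway (mainly SREBP2) and of fatty acid synthesis and desaturation (mainly SREBP1). Fatty acids made by this route or taken up from outside are joined to coenzyme A, stored as droplets, built into membranes or oxidized in mitochondria.

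The tumour labelled HR1 replicate 1 stood apart and went against its label. *Nfib* had 1343, 23.9 and 18.3 CPM (counts scaled to a common library size of 1000000 with TMM factors) in the tumours labelled HR1 replicates 1, 2 and 3, against 786, 791 and 579 CPM in LM1 and 532, 583 and 421 CPM in LM9. The correlation of log2 CPM over genes was 0.907 and 0.897 between the library labelled HR1 replicate 1 and HR1 replicates 2 and 3, 0.971 between the latter, and from 0.991 to 0.995 within each LM model. Of the 44 genes, 14 differed over 2-fold between it and the mean of HR1 replicates 2 and 3 (31.8%, against 29.2% of all genes tested), 12 of them lower in it. The main counts and most fold changes against HR1 are therefore given with and without this library. Total counts per tumour lay between 32393958 and 46681945. The sorted cells were checked against marker genes. *Epcam* and *Cdh1*, which mark mammary epithelium, did not exceed 4.49 and 1.20 CPM in any tumour, while 7 fibroblast markers summed to between 8914 and 35114 CPM. Of the other epithelial markers counted, *Krt14*, a basal keratin, had 1.56, 31.4 and 109 CPM in HR1, 175, 152 and 175 in LM1 and 12.2, 15.4 and 14.00 in LM9 and made up most of the epithelial sum of LM1 (156 to 180 CPM). In bulk samples, fewer cells of a type and less RNA per cell cannot be told apart. No source says that the 3 tumours of a model came from separate mice, so p-values measure the spread between these samples.

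**Figure D1:**
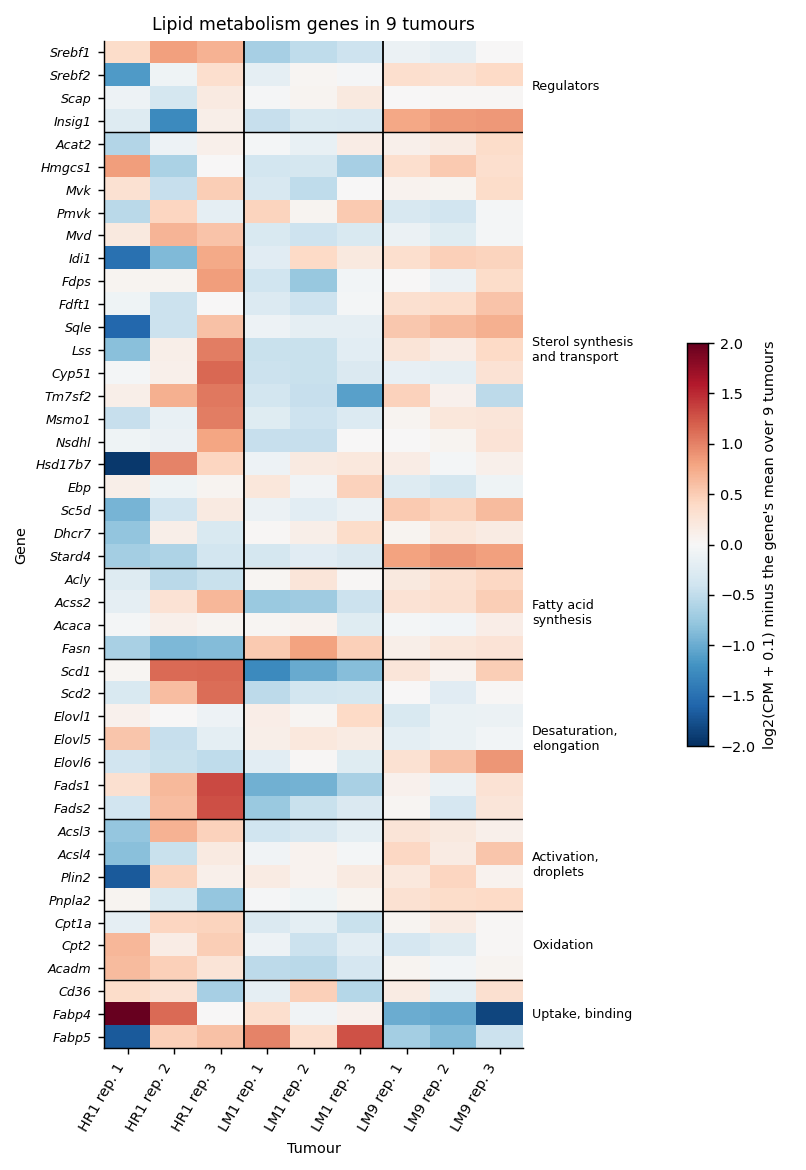
Heat map of the 44 genes (rows, by role) in the 9 tumours (columns). Colour is log2(CPM + 0.1) minus the gene's mean over all 9 tumours, cut off at −2 and 2. The first column, HR1 replicate 1, differs from the columns of HR1 replicates 2 and 3 for genes such as *Hsd17b7*, *Plin2*, *Sqle* and *Fabp5*, and *Fasn* is higher, and *Srebf1* lower, in each of the 6 LM columns than in each HR1 column.

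Across genes, levels were compared as RPKM, that is CPM per kilobase of exon. *Scd2*, a stearoyl-CoA desaturase that makes monounsaturated fatty acids, had a mean level of 292 RPKM in HR1, 147 in LM1 and 187 in LM9, above each of the other 43 genes in all 3 models. *Plin2*, the coat protein of lipid droplets, followed in the LM models with 97.7 RPKM in LM1 and 106 in LM9. At the other end *Idi1*, *Tm7sf2* and *Cd36* stayed under 2 CPM in all 9 tumours. *Idi1* makes an isoprenoid building block, and 17.7% of the 50-base windows of its annotated transcripts also occur in transcripts of other genes, so its counts are uncertain. The same holds for *Acat2* (39.1%, shared with *Acat3*), *Acaca* (30.4%, mostly *Gm5182*) and *Fdps* (26.2%, mostly *Gm43738*).

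The first question was which of the genes differ between the metastatic LM models and HR1. With LM1 and LM9 together, 5 of 44 genes were higher and 9 lower (adjusted p under 0.05 in edgeR's quasi-likelihood test, adjusted over 14086 genes tested). That is 11.4% higher and 20.5% lower, against a background over all genes tested of 19.9% higher and 23.6% lower, both shares lying below those of all genes. The median log2 fold change was −0.04 over the 44 genes and −0.05 over all genes. Without the library labelled HR1 replicate 1, 6 were higher (13.6%) and 17 lower (38.6%), against 27.5% and 28.5% of all genes, so the lower share was then above that of all genes. LM1 alone had 2 higher (4.55%) and 12 lower (27.3%) than HR1 (background 16.7% and 18.7%), or 4 (9.09%) and 18 (40.9%) without that library (background 26.9% and 26.0%). LM9 alone had 9 higher (20.5%) and 6 lower (13.6%; background 20.4% and 21.9%), or 10 (22.7%) and 14 (31.8%) without it (background 27.9% and 27.8%). Both comparisons use the same HR1 tumours. With each of the 9 tumours left out in turn, 11 of the 14 calls for LM1 and LM9 together stayed past the threshold. Those for *Scd2*, *Fads2* and *Pnpla2* did not, since they were lost in 8 of 9 fits, all but the one without HR1 replicate 1.

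**Figure D2:**
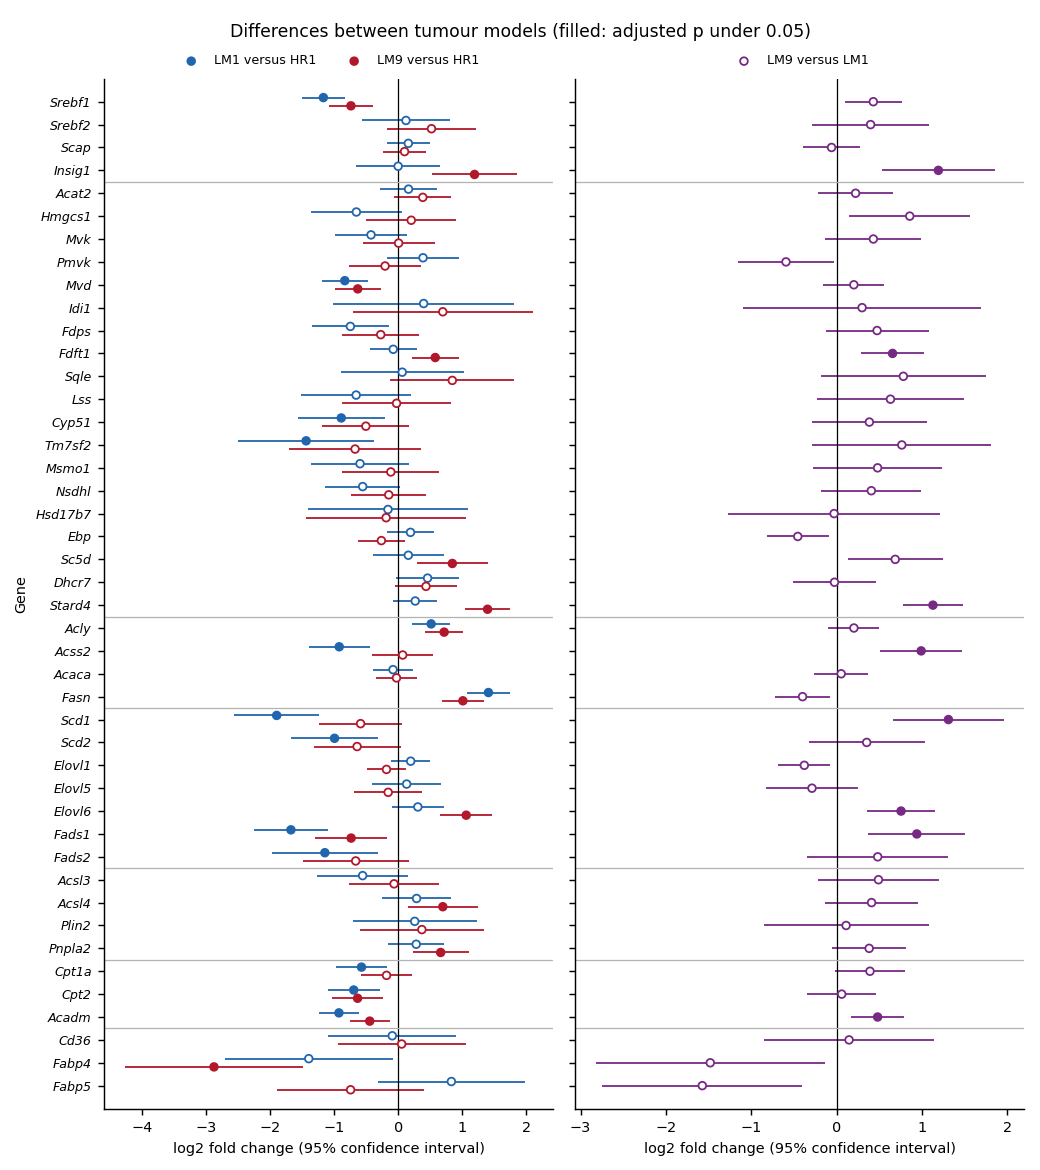
Log2 fold changes of the 44 genes with 95% confidence intervals from edgeR. Left, LM1 (blue) and LM9 (red) versus HR1; right, LM9 versus LM1; filled points have an adjusted p under 0.05. *Fasn* lies to the right of 0 and *Srebf1* to the left for both LM models, while *Insig1*, *Stard4* and *Elovl6* are filled for LM9 but not for LM1.

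Of the regulators, *Srebf1* was lower in both LM models and *Insig1* was higher in LM9. *Srebf1*, which encodes SREBP1 (chromosome 11 of GRCm38, 60199084 to 60224186), had 188, 258 and 235 CPM in HR1 replicates 1, 2 and 3, 91.3, 102 and 109.5 CPM in LM1 and 134, 128 and 146 CPM in LM9. The 3 models did not overlap, with HR1 highest and LM1 lowest. On the log2 scale it changed by −1.17 in LM1 (standard error 0.15, adjusted p = 0.000798) and −0.74 in LM9 (0.15, 0.00511), and −1.28 and −0.85 without HR1 replicate 1. These calls held with each tumour left out. *Insig1*, which encodes the sterol-dependent anchor of SCAP and is itself a known SREBP target, had 46.8, 23.2 and 61.04 CPM in HR1, 40.7, 45.3 and 44.9 CPM in LM1 and 96.2, 101 and 102 CPM in LM9. All LM9 tumours lay above all other tumours, and LM1 fell inside the range of HR1. The log2 fold change of LM9 versus HR1 was 1.19 (standard error 0.29, adjusted p = 0.0119), or 1.25 without HR1 replicate 1, while that of LM1 had a 95% confidence interval from −0.66 to 0.65.

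Neither *Srebf2* nor *Scap* passed the test against HR1. *Srebf2*, which encodes SREBP2, had 157, 323 and 433 CPM in HR1, 302, 354 and 338 CPM in LM1 and 434, 422 and 453 CPM in LM9. The LM9 tumours were all above the LM1 tumours, and HR1 spanned from below LM1 to within LM9, its lowest value being replicate 1. Together, LM1 and LM9 had a log2 fold change of 0.32 (adjusted p = 0.355), and 0.01 without HR1 replicate 1. *Scap*, the escort protein of the SREBPs, had 60.6, 50.7 and 73.4 CPM in HR1, 64.3, 67.8 and 74.1 in LM1 and 65.6, 65.8 and 66.5 in LM9. Its confidence interval for LM1 and LM9 together, from −0.17 to 0.42 on the log2 scale, leaves out a change of 2-fold or more.

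**Figure D3:**
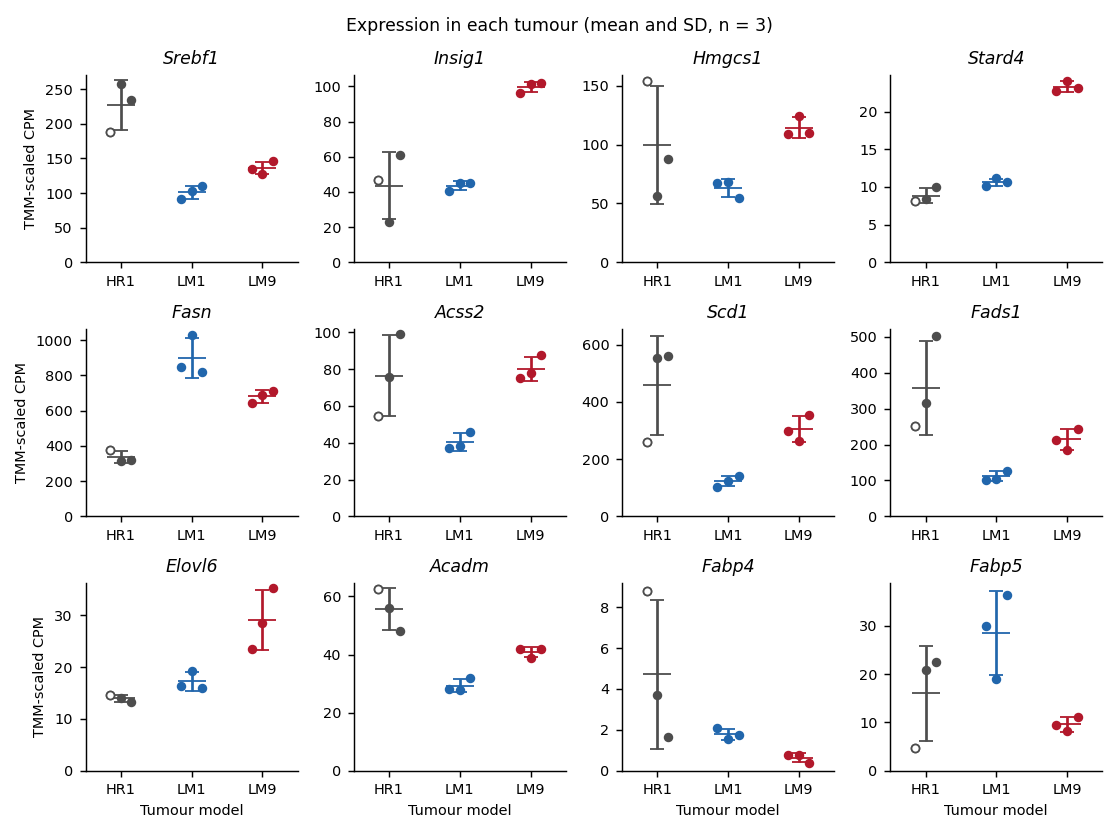
TMM-scaled CPM of 12 of the genes in each tumour. Points are single tumours (open point, HR1 replicate 1), and horizontal bars show the mean with its SD (n = 3 per model). *Insig1* and *Stard4* are higher in each LM9 tumour than in every other tumour, *Fasn* is higher in the LM models than in HR1, and *Scd1* and *Fads1* are lowest in LM1.

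With LM1 and LM9 together, 1 of the 19 genes of sterol synthesis and transport was higher and 1 lower than in HR1 (5.26% each, against 19.9% and 23.6% of all genes), and their median log2 fold change was −0.17. Without HR1 replicate 1 there were 1 higher and 6 lower (5.26% and 31.6%, against 27.5% and 28.5%). *Stard4*, a carrier that moves cholesterol between membranes, had 8.08, 8.44 and 10.04 CPM in HR1, 10.2, 11.1 and 10.6 in LM1 and 22.7, 24.1 and 23.1 in LM9. LM9 lay more than 2-fold above each HR1 tumour. LM9 differed from HR1 by 1.40 on the log2 scale (standard error 0.15, adjusted p = 0.000368, 1.34 without HR1 replicate 1) and LM1 by 0.27 (adjusted p = 0.203). *Mvd*, which decarboxylates mevalonate diphosphate, was lower in both models, at −0.83 in LM1 (adjusted p = 0.00463) and −0.63 in LM9 (0.0131, but 0.0526 without LM9 replicate 2) on the log2 scale, or −0.96 and −0.76 without HR1 replicate 1.

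LM1 and LM9 differed from HR1 in other genes of the sterol pathway. In LM1, 3 of 19 were lower (15.8%, against 18.7% of all genes), *Mvd* with *Cyp51* and *Tm7sf2*, and 8 without HR1 replicate 1 (42.1% against 26.0%). *Tm7sf2*, a sterol reductase, had only 0.898, 1.40 and 1.80 CPM in HR1, 0.609, 0.566 and 0.33 in LM1 and 1.16, 0.87 and 0.54 in LM9, a difference in LM1 of −1.44 on the log2 scale (standard error 0.47, adjusted p = 0.0402, −1.65 without HR1 replicate 1). *Cyp51*, the lanosterol demethylase, changed by −0.89 in LM1 (adjusted p = 0.0469, −1.09 without HR1 replicate 1). Both calls depended on which tumours were used, since *Tm7sf2* was lost in 8 and *Cyp51* in 7 of the 9 fits that left out a tumour, with the largest adjusted p 0.121 and 0.128. Part of the *Tm7sf2* exons (12.1%) is covered by exons of *Vps51* on the same strand. In LM9, *Fdft1* and *Sc5d* were higher beside *Stard4*, 3 of 19 genes (15.8%), and 1, *Mvd*, was lower (5.26%), against 20.4% and 21.9% of all genes. Without HR1 replicate 1 there were 4 higher and 3 lower (21.1% and 15.8%, against 27.9% and 27.8%). *Fdft1*, squalene synthase, rose by 0.58 (adjusted p = 0.0203, 0.62 without HR1 replicate 1), though 18.3% of its exons face exons of *Ctsb* on the opposite strand. *Sc5d*, a late sterol desaturase, had 15.3, 22.4 and 33.2 CPM in HR1, 26.97, 25.3 and 26.9 in LM1 and 42.03, 39.9 and 45.5 in LM9, where every tumour was above every HR1 tumour. Its log2 fold change in LM9 was 0.85 (standard error 0.25, adjusted p = 0.0233, 0.62 without HR1 replicate 1). Leaving out HR1 replicate 2 or any 1 LM9 tumour ended the call for *Sc5d*, with an adjusted p of up to 0.0723, and leaving out HR1 replicate 2 or LM9 replicate 2 or 3 that for *Fdft1*, with up to 0.0788. The 10 genes *Acat2*, *Mvk*, *Pmvk*, *Idi1*, *Fdps*, *Lss*, *Msmo1*, *Nsdhl*, *Ebp* and *Dhcr7*, which cover steps from acetoacetyl-CoA to cholesterol, did not pass the test in either model. For LM1 and LM9 together their log2 fold changes lay between −0.51 (*Fdps*, adjusted p = 0.0978) and 0.55 (*Idi1*, 0.448). Without HR1 replicate 1, *Fdps* (−0.64, 0.0393) and *Lss* (−0.68, 0.0151) of these were called lower for LM1 and LM9 together, and in LM1 alone so were *Msmo1* (−0.85, 0.0247) and *Nsdhl* (−0.69, 0.0408).

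*Hmgcs1* and *Sqle*, which encode HMG-CoA synthase and squalene epoxidase, did not pass the test against HR1. *Hmgcs1* had 154, 56.3 and 87.5 CPM in HR1, 67.00, 67.98 and 54.5 in LM1 and 109, 124 and 109.5 in LM9. Replicate 1 was the highest of all 9 tumours, whereas HR1 replicates 2 and 3 lay below each LM9 tumour. For LM9 it changed by 0.20 on the log2 scale with all tumours (adjusted p = 0.622) and 0.67 without replicate 1 (adjusted p = 0.0132). *Sqle* moved the other way with that library, at 83.02, 183 and 371 CPM in HR1, 230.1, 218 and 217 in LM1 and 359, 383 and 404 in LM9, for a log2 fold change in LM9 of 0.85 (adjusted p = 0.14) or 0.46 without it. The HR1 tumours thus overlapped both LM models for *Sqle*.

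Among the 4 genes of fatty acid synthesis, *Fasn* and *Acly* were higher in both LM models. *Fasn*, fatty acid synthase (chromosome 11, 120805958 to 120825166), had 376, 316 and 322 CPM in HR1, 847, 1029 and 817 in LM1 and 641, 691 and 710.5 in LM9. The 3 models did not overlap, and LM1 was highest. Its log2 fold change was 1.41 in LM1 (standard error 0.15, adjusted p = 0.000334) and 1.01 in LM9 (0.14, 0.00109), and 1.5 and 1.10 without HR1 replicate 1. *Acly*, which makes cytosolic acetyl-CoA from citrate, rose by 0.51 in LM1 (adjusted p = 0.0163, but 0.0673 without LM1 replicate 2) and 0.72 in LM9 (adjusted p = 0.00338), or 0.60 and 0.80 without HR1 replicate 1. *Acss2*, which makes acetyl-CoA from acetate, had 54.6, 75.6 and 98.7 CPM in HR1, 37.1, 38.03 and 45.9 in LM1 and 75.4, 77.6 and 87.4 in LM9. Only LM1 stood below HR1, at −0.92 on the log2 scale (standard error 0.21, adjusted p = 0.01, −1.10 without HR1 replicate 1). *Acaca*, the acetyl-CoA carboxylase that commits carbon to fatty acids, had 23.7, 26.1 and 25.2 CPM in HR1, 24.95, 25.4 and 20.6 in LM1 and 23.6, 23.5 and 26.6 in LM9. Its log2 fold change for LM1 and LM9 together was −0.05, with a confidence interval from −0.33 to 0.22, and the tumours of the 3 models overlapped.

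Desaturation and elongation was the role with the most calls, 5 of 7 genes with LM1 and LM9 together, 4 lower and 1 higher (57.1% and 14.3%, against 23.6% and 19.9% of all genes). Without HR1 replicate 1 there were 4 lower and 2 higher (57.1% and 28.6%, against 28.5% and 27.5%), and with single other tumours left out the calls for *Scd2* and *Fads2* were lost. All 4 desaturase genes were lower and 1 of the 3 elongases was higher. *Scd1*, the stearoyl-CoA desaturase regulated by SREBP1 (chromosome 19, 44394450 to 44407709), had 259.5, 555 and 559.8 CPM in HR1, 104, 125 and 140.0 in LM1 and 298, 264 and 354 in LM9. HR1 replicate 1 lay just below the LM9 tumours, and HR1 replicates 2 and 3 lay above all LM tumours. On the log2 scale LM1 differed by −1.90 (standard error 0.29, adjusted p = 0.00176, −2.17 without HR1 replicate 1). In LM9 it was −0.59 (adjusted p = 0.125), and −0.87 without that library (adjusted p = 0.00138). *Scd2* changed by −0.99 in LM1 (adjusted p = 0.0313, lost in 8 of 9 fits, with up to 0.104) and −0.64 in LM9 (0.114), or −1.29 and −0.94 without it (0.000154 and 0.000931). About 4.56% of 50-base windows of *Scd1* also occur in *Scd2* or another gene.

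*Fads1* and *Fads2*, which encode the delta-5 and delta-6 desaturases of polyunsaturated fatty acids, lie side by side on chromosome 19. *Fads1* had 251, 316 and 502 CPM in HR1, 102, 105 and 128 in LM1 and 213, 184 and 245 in LM9. Every LM tumour was below every HR1 tumour. Log2 fold changes were −1.67 in LM1 (standard error 0.26, adjusted p = 0.00168) and −0.73 in LM9 (0.25, 0.0418), or −1.87 and −0.93 without HR1 replicate 1. The LM9 call was lost in each of the 8 other fits that left out a tumour, with an adjusted p of up to 0.125. *Fads2* had 44.2, 88.7 and 140.4 CPM in HR1, 34.4, 42.3 and 46.9 in LM1 and 59.3, 45.3 and 67.9 in LM9, and HR1 replicate 1 fell inside the LM1 range and just below LM9. Its log2 fold change was −1.15 in LM1 (standard error 0.37, adjusted p = 0.0386, lost in 8 of 9 fits, with up to 0.127) and −0.66 in LM9 (0.169), or −1.47 and −0.99 without replicate 1 (0.000624 and 0.00508). The 4 desaturase genes lie in 2 pairs on chromosome 19. The 29 other tested genes within 1 Mb of the *Fads* pair had a median log2 fold change of −0.45 in LM1 and −0.40 in LM9, and the 27 others near the *Scd* pair −0.23 and −0.25, against −0.20 and −0.03 over the 514 tested genes of chromosome 19. The part of their position in these results was not tested.

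*Elovl6* went the opposite way to the desaturases. This elongase, which extends palmitate and is a known SREBP1 target, had 14.5, 13.9 and 13.3 CPM in HR1, 16.4, 19.3 and 15.98 in LM1 and 23.5, 28.6 and 35.2 in LM9. The tumours of the 3 models did not overlap. From HR1, LM9 differed by 1.06 on the log2 scale (standard error 0.18, adjusted p = 0.00222, 1.10 without HR1 replicate 1) and LM1 by 0.31 (adjusted p = 0.206). *Elovl1*, an elongase of very long saturated chains, had an interval from −0.26 to 0.27 for LM1 and LM9 together. *Elovl5*, which extends polyunsaturated chains, had one from −0.47 to 0.45, and without HR1 replicate 1 its log2 fold change was 0.35 (adjusted p = 0.0221).

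The DNA in front of these genes is shown because several of them share a known regulator. The RefSeq table (GRCm38.p6) gave promoters, from 250 bases before to 50 after the start, for 35 of the 44 genes. It gave none for *Scd1*, *Scd2* or *Fads1*. Each was searched on both strands for the sterol regulatory element TCACNCCAC, for CCAAT (the NF-Y core), for the E-box CACGTG and for the NFI palindrome (TTGGC and GCCAA, 5 bases apart), where ATTGG, the reverse complement of CCAAT, can overlap the TTGGC of the NFI motif. The sterol element was in 1 of 42 promoters of the genes (2.38%) and in 1.24% of all 32851 promoters, CCAAT in 27 (64.3% against 37.4%), the E-box in 8 (19.05% against 7.15%), and the NFI palindrome in 0.0365% of all promoters but in none of the 42. Within sterol synthesis, 14 of 18 promoters held CCAAT (77.8%). All promoters include those of genes not counted in these tumours, whereas the 44 genes were all counted. A background of counted genes alone was not searched, so these shares do not separate lipid role from being expressed. *Fads2* (chr19:10101454-10101753, minus strand) and *Elovl6* (chr3:129532136-129532435, plus strand) are the desaturation and elongation genes with a call and an entry. *Fasn* (chr11:120824498-120824797, minus strand), *Insig1* (chr5:28071162-28071461, plus strand) and *Hmgcs1* (chr13:119690101-119690400, plus strand), which holds the 1 sterol element, were added after their values were seen. Capitals mark matches to the 4 motifs, read 5′ to 3′ along the gene. The *Fads2* and *Elovl6* windows hold none of them.
Fads2: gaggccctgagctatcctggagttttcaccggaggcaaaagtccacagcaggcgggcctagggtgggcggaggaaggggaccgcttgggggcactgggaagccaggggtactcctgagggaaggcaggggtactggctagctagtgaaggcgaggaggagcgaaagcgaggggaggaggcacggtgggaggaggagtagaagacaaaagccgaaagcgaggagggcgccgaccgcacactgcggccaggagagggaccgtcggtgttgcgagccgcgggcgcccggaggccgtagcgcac
Elovl6: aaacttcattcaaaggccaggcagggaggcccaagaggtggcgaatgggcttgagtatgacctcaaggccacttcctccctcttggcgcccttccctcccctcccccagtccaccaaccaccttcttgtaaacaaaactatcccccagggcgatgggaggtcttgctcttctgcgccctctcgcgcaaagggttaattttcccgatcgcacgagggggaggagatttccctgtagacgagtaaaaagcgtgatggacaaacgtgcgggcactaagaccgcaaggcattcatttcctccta
Fasn: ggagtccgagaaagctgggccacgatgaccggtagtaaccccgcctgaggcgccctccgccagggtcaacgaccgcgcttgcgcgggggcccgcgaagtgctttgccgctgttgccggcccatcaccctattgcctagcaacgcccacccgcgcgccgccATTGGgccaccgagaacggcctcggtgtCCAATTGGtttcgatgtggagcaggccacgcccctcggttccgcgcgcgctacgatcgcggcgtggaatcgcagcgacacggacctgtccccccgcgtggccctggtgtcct
Insig1: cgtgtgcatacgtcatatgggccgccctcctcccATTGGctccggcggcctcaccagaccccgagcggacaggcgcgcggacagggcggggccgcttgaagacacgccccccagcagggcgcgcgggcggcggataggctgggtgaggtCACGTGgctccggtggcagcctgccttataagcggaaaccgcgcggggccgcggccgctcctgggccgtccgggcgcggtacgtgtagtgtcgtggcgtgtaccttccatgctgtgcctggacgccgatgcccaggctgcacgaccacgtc
Hmgcs1: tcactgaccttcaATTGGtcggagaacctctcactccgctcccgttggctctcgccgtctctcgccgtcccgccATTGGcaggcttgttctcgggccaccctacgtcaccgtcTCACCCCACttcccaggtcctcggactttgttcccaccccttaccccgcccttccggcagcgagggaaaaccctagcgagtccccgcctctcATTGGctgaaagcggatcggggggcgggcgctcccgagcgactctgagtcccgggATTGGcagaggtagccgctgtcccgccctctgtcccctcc
In *Hmgcs1* the sterol element TCACCCCAC begins at position −137 from the start, between CCAAT matches at −176 and −45 (written ATTGG, its reverse complement). In *Fasn* the matches at −62 and −59 overlap. In *Insig1* the E-box begins at −101. A match is a description of these letters and does not show binding.

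Among genes of activation and lipid droplets, *Pnpla2* and *Acsl4* were higher in LM9. *Pnpla2*, the triglyceride lipase of droplets, rose by 0.66 in LM9 (adjusted p = 0.0235, 0.89 without HR1 replicate 1) and *Acsl4*, which activates polyunsaturated fatty acids, by 0.70 (adjusted p = 0.0443, 0.49 without it). Leaving out HR1 replicate 2 or any 1 LM9 tumour ended both calls, with an adjusted p of up to 0.0692 for *Pnpla2* and 0.132 for *Acsl4*, and for *Acsl4* so did leaving out any 1 LM1 tumour. *Plin2* had 97.5, 427 and 336 CPM in HR1, 349, 327 and 353 in LM1 and 360.2, 422 and 329.6 in LM9, so that replicate 1 alone stood far below the other 8 tumours. *Acsl3*, which loads fatty acids into new droplets, changed by −0.31 for LM1 and LM9 together (adjusted p = 0.373) and by −0.63 without that library (adjusted p = 0.001).

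The 3 genes of mitochondrial fatty acid oxidation were lower in LM1 than in HR1 with and without HR1 replicate 1 (18.7% and 26.0% of all genes were). Of 8 other oxidation genes counted, 3 were lower in LM1 with all tumours, *Acadvl* (−0.87 on the log2 scale, adjusted p = 0.0233), *Acaa2* (−0.79, 0.00344) and *Etfdh* (−0.49, 0.0151), whereas *Acadl* (−0.01, 0.96) and *Hadha* (0.17, 0.297) were among those that did not pass. *Acadm*, the medium-chain acyl-CoA dehydrogenase, had 62.7, 55.97 and 48.1 CPM in HR1, 28.2, 27.8 and 31.9 in LM1 and 41.9, 38.8 and 41.9 in LM9. The 3 models did not overlap. It changed by −0.93 on the log2 scale in LM1 (standard error 0.14, adjusted p = 0.00154, −0.82 without HR1 replicate 1) and −0.44 in LM9 (0.14, 0.0297, −0.35). *Cpt2*, the inner-membrane carnitine acyltransferase, changed by −0.69 in LM1 (adjusted p = 0.0163) and −0.63 in LM9 (0.0204), or −0.56 and −0.51 without HR1 replicate 1. *Cpt1a*, the rate-limiting outer-membrane transferase, had 107, 164 and 166 CPM in HR1, 98.97, 106 and 88.9 in LM1 and 126, 136 and 123 in LM9, and HR1 replicate 1 lay between the LM models. It changed by −0.57 in LM1 (standard error 0.18, adjusted p = 0.035) and −0.18 in LM9 (0.437), or −0.75 and −0.36 without that library (0.000506 and 0.0229). The LM1 call for *Cpt1a* was lost in 8 of the 9 fits that left out a tumour (up to 0.110), that for *Cpt2* without LM1 replicate 2 (0.0605). In LM9 the *Cpt2* call was lost without LM9 replicate 1 or 2 (up to 0.0818), and that of *Acadm* without HR1 replicate 2, LM1 replicate 1 or any 1 LM9 tumour (up to 0.0894).

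Genes of fatty acid uptake and binding had low levels, and *Fabp4* had the largest log2 fold change of the 44 in LM9 against HR1. *Fabp4*, the fatty acid binding protein of adipocytes, endothelium and macrophages, had 8.78, 3.69 and 1.65 CPM in HR1, 2.08, 1.54 and 1.73 in LM1 and 0.773, 0.755 and 0.383 in LM9. HR1 replicate 1 was highest, HR1 replicate 3 fell inside the LM1 range, and LM9 was below all other tumours. The log2 fold change was −2.88 in LM9 (standard error 0.61, adjusted p = 0.00652) and −1.40 in LM1 (0.58, 0.0899), or −2.06 (0.00341) and −0.58 (0.286) without HR1 replicate 1. *Fabp5*, its epidermal relative, had 4.62, 20.9 and 22.5 CPM in HR1, 29.97, 19.1 and 36.5 in LM1 and 9.38, 8.19 and 11.1 in LM9. The library labelled HR1 replicate 1 was lowest of all, and the log2 fold change of LM9 moved from −0.74 (adjusted p = 0.264) to −1.18 (0.00296) without it. *Cd36*, a fatty acid translocase, had 1.80, 1.69 and 0.823 CPM in HR1, 1.20, 1.95 and 0.889 in LM1 and 1.55, 1.19 and 1.73 in LM9, with overlapping models and an interval from −0.88 to 0.85 for LM1 and LM9 together.

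Levels of markers of cell types known to use such genes are given beside these results. The 8 leukocyte markers summed to between 139 and 590 CPM in HR1, 103 and 109 in LM1 and 167 and 196 in LM9, and 6 of 8 were lower in LM1 and LM9 together (75%, against 23.6% of all genes), as also without HR1 replicate 1. *Cd68*, a lysosomal protein of macrophages and the largest part of the LM9 sum, had 24.2, 122 and 41.2 CPM in HR1, 15.9, 17.7 and 17.9 in LM1 and 107, 135 and 138 in LM9, higher in LM9 than in LM1. *Adgre1*, another macrophage marker, had 35.4, 65.5 and 14.1 CPM in HR1, 9.93, 7.93 and 10.3 in LM1 and 7.81, 4.62 and 8.82 in LM9. Of 8 adipocyte markers 3 were counted, *Cfd*, *Pparg* and *Lipe*, summing to between 3.80 and 19.7 CPM in HR1, 7.25 and 8.08 in LM1 and 9.20 and 10.9 in LM9, with *Cfd* at most 0.481 CPM. *Lipe* made up most of this sum, and the LM sums lay inside the HR1 range. For LM1 and LM9 together the adjusted p was 0.869 for *Cfd*, 0.744 for *Pparg* and 0.774 for *Lipe* with all tumours, and without HR1 replicate 1 *Lipe* was higher (0.95, 0.00757). Of 7 endothelial markers 5 were counted, with sums between 5.51 and 25.7 CPM in HR1, 163 and 226 in LM1 and 252 and 290.3 in LM9. *Cdh5* and *Kdr*, higher in the LM models, made up most of it, while *Pecam1*, *Emcn* and *Vwf* were lower in LM1 and LM9 together. Of 7 fibroblast markers 6 were lower in LM1 and LM9 together (85.7%), or 5 without HR1 replicate 1 (71.4%, against 28.5% of all genes), and of 5 epithelial ones 2 (40%) in both fits. The part of these cells in the results for *Fabp4*, *Fabp5* and *Cd36* was not tested.

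The second question was whether the LM models differ from each other. LM9 had higher levels than LM1 for most of these genes, with a positive log2 fold change for 34 of 44 and a median of 0.39, against 7089 of 14086 genes and a median of 0.00462. All 3 LM9 tumours were above all 3 LM1 tumours for 24 genes (54.5%, against 31.9% of all genes tested) and below them for 7 (15.9% against 31.1%). In the fit over all 9 tumours, whose common spread includes that of HR1, 8 genes were called higher in LM9 and 0 lower, against a background of 11.5% higher and 10.6% lower. By adjusted p DESeq2 called 11 and 4 and limma-voom 8 and 0. At an unadjusted p under 0.05 there were 11 higher and 6 lower in edgeR, 11 and 6 in DESeq2 and 11 and 5 in limma-voom. Shares of all genes were not counted for DESeq2, limma-voom or unadjusted p, so these counts have no background. When only the 6 LM tumours were fitted, 25 were higher and 7 lower (56.8% and 15.9%), against a background of 28.3% and 28.0%. In that fit 11 of 19 genes of sterol synthesis and transport were higher in LM9 and 2, *Pmvk* and *Ebp*, lower. The count over all 9 tumours fell to 1 without LM1 replicate 1 or LM9 replicate 3, 3 without LM9 replicate 1 or 2, 4 without LM1 replicate 3 and 5 without LM1 replicate 2, and rose to 23 without HR1 replicate 1, 17 higher and 6 lower (38.6% and 13.6%, against 22.9% and 22.5% of all genes).

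The 8 genes higher in LM9 than in LM1 were *Scd1*, which differed by 1.31 on the log2 scale (standard error 0.29, adjusted p = 0.0145), *Insig1* at 1.19 (0.29, 0.0217), *Stard4* at 1.13 (0.15, 0.00249), *Acss2* at 0.99 (0.21, 0.013), *Fads1* at 0.94 (0.25, 0.0293), *Elovl6* at 0.76 (0.18, 0.0188), *Fdft1* at 0.66 (0.16, 0.0225) and *Acadm* at 0.48 (0.14, 0.0374). For each of them all 3 LM9 tumours exceeded all 3 LM1 tumours. Only the *Stard4* call held with each tumour left out, with the largest adjusted p 0.0203. For the other 7 the largest was between 0.0633 (*Acss2*) and 0.133 (*Acadm*). In the fit of the 6 LM tumours *Hmgcs1* had a log2 fold change of 0.85 (adjusted p = 0.000125), *Sqle* 0.77 (6.9e-05), *Lss* 0.62 (0.000744) and *Sc5d* 0.68 (0.000307), all further genes of the sterol pathway. *Srebf1* and *Srebf2* had 0.42 (0.00532) and 0.39 (0.0072). *Fasn*, *Fabp4* and *Fabp5* went the other way, with −0.41 (0.0118), −1.49 (0.00239) and −1.58 (0.000135). For these 9 genes too there was no overlap of LM1 with LM9.

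Other genes of the same pathways were also counted, 47 of a list of 50 chosen from textbook roles. With LM1 and LM9 together 9 were higher and 18 lower than in HR1 (19.1% and 38.3%, against 19.9% and 23.6% of all genes), or 12 and 21 without HR1 replicate 1 (25.5% and 44.7%, against 27.5% and 28.5%). In LM9 versus LM1 13 were higher and 1 lower (27.7% and 2.13%, against 11.5% and 10.6%). *Dgat2*, which completes triglycerides, rose by 3.25 in LM1 and LM9 together (adjusted p = 3.4e-05). *Mlxipl* (ChREBP, a glucose-responsive activator of lipogenic genes) and *Fabp3* were nearly absent in HR1, at most 0.831 and 0.0772 CPM, and reached 7.16, 6.52 and 5.38 and 1.03, 0.589 and 1.17 CPM in LM1 and 11.3, 3.27 and 2.95 and 1.46, 1.35 and 1.58 CPM in LM9 (adjusted p = 0.00552 and 0.000416 for LM1 and LM9 together). *Lpl*, lipoprotein lipase, had 38.9, 4.91 and 0.257 CPM in HR1 and at most 1.81 CPM in the LM tumours, and its log2 fold change of −3.61 (adjusted p = 0.0202) became −1.11 (0.243) without HR1 replicate 1.

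The largest called changes of these other genes between LM9 and LM1 were in genes of droplets and malonyl-CoA. *Plin4*, a droplet coat protein, had 4.21, 4.21 and 4.97 CPM in LM9 and at most 0.042 CPM in LM1 (adjusted p = 0.00261). *Acacb*, the mitochondrial acetyl-CoA carboxylase, rose by 2.47 on the log2 scale (adjusted p = 0.00168), with 1.81, 2.90 and 1.68 CPM in LM1 and 13.1, 10.1 and 12.3 in LM9. *Hilpda*, a hypoxia-inducible inhibitor of droplet lipolysis, had 36.5, 51.4 and 44.7 CPM in HR1, 37.7, 46.7 and 43.2 in LM1 and 181, 163 and 112 in LM9, and LM9 lay above every other tumour. Versus LM1 it rose by 1.84 on the log2 scale (standard error 0.21, adjusted p = 0.00131).

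Leaving out the library labelled HR1 replicate 1 kept every call made with it and added others. All 14 genes called for LM1 and LM9 together, all 14 for LM1 and all 15 for LM9 were called without it too, and 9, 8 and 9 more were added. Calls over all genes rose as well, from 6138 to 7902, from 4994 to 7453 and from 5958 to 7862 in the same order. *Hsd17b7* (a sterol ketoreductase) and *Acsl3* were added, as lower, in all 3 comparisons. *Hsd17b7* had 16.5, 125 and 85.5 CPM in HR1, 58.9, 71.8 and 72.8 in LM1 and 69.95, 61.7 and 67.8 in LM9. Replicate 1 alone was far below the rest. Its log2 fold change for LM1 and LM9 together was −0.17 (adjusted p = 0.79) with that library and −0.64 (0.00482) without it.

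**Figure D4:**
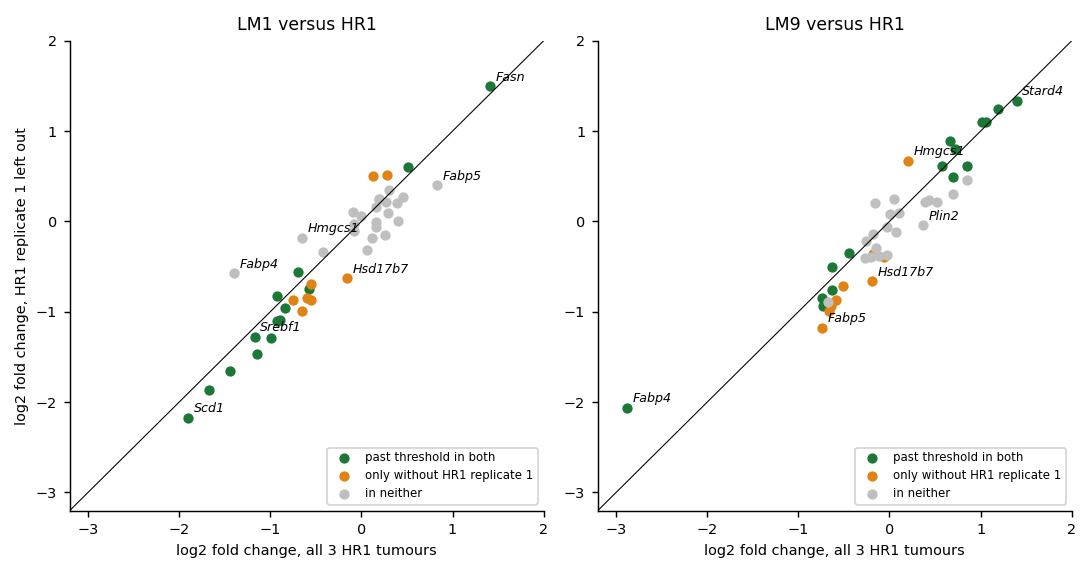
Log2 fold changes of the 44 genes for LM1 (left) and LM9 (right) versus HR1, with all 3 HR1 tumours (horizontal axis) and with HR1 replicate 1 left out (vertical axis). Points on the line are unchanged; green points are past the threshold in both fits, orange only without the library, grey in neither. Most points lie near the line, while *Fabp4* lies above it and *Hsd17b7* and *Fabp5* below it.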

How the data were processed

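RNA-seq counts of sorted cells from 9 tumours were used, grouped by the titles. STAR was used by the authors for alignment (mm10), and they deposited, per tumour, whole-number counts of 5′ ends over the exons of each gene (QuasR, exon union model). The values are not normalized, and the strand setting is not given in the sources used here. The tables held 14108 genes, 14085 with a symbol. edgeR 4.0.16 in R 4.3.3 was used with TMM factors (0.928 to 1.05), its expression filter (14086 genes) and the robust quasi-likelihood F-test in 1 fit of the 3 models, with Benjamini-Hochberg adjustment over all genes tested and a threshold of 0.05. On simulated counts with 13929 genes for LM1 and LM9 versus HR1, it recovered 34% of changes of 1 and 83% of changes of 2 on the log2 scale, with 4.10% false calls. The simulation changed 100 genes at each size and gave all 3 models the same spread per gene. In the data HR1 varied more than the LM models and 6138 genes were called, so these rates need not hold here. Standard errors were taken from the F statistic. RPKM used exon-union lengths of GENCODE. limma 3.58.1 (limma-voom, the framework the study used), DESeq2 1.42.0, other size factors and filters, no robust estimation, only the tumours compared, a replicate block, a minimum fold change and leaving out each tumour were alternatives. The genes, the lists (other pathway genes; adipocyte, endothelial, leukocyte, fibroblast and epithelial markers) and the rule for naming were chosen with earlier results of these data known. The rule describes the 4 regulators, 9 other fixed genes and, in each comparison, the 6 called genes with the largest change, and names the 3 most changed other pathway genes. Some other pathway genes are not reported here. Genes named from the fit of the 6 LM tumours, the other oxidation genes, single markers and the other members given by role were chosen after their values were seen. Intervals cover the spread between tumours, and reads without molecular identifiers are not independent molecules.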

Additional observations from a re-analysis of the deposited data

Results flagged for a closer look

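For 8 of 44 genes (18.2%) the change from HR1 differed between LM1 and LM9, by edgeR's test of LM9 versus LM1 over 9 tumours. The difference, LM9 minus LM1 on the log2 scale, was 1.31 for *Scd1*, 1.19 for *Insig1*, 1.13 for *Stard4*, 0.99 for *Acss2*, 0.94 for *Fads1*, 0.76 for *Elovl6*, 0.66 for *Fdft1* and 0.48 for *Acadm*. Each was higher in LM9, in 3 of 3 tumours against 3 of 3. Over all genes tested, 11.5% were called higher in LM9 and 10.6% lower. All LM9 tumours lay above all LM1 tumours for 31.9% of all genes. Only the *Stard4* call held with each tumour left out, and the other 7 were lost in some of those fits. No test of outlying samples was run in groups of 3 tumours, and the library labelled HR1 replicate 1 is described by its values.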

How the results depend on the processing

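Of 30 called values of the genes described in full, none changed sign under the 9 fits that left out a tumour or the other alternatives fitted, and 19 stayed past the threshold in all of them. These values were picked as called, and part of the genes for large changes, so a change of sign was unlikely from the start. The counts of genes called were more sensitive. A minimum absolute log2 fold change of 1 reduced them to 4 for LM1 and LM9 versus HR1, 6 for LM1, 5 for LM9 and 3 for LM9 versus LM1. Library size only gave 9 for LM1 versus HR1, and only the tumours compared gave 8 for it and 32 for LM9 versus LM1, where DESeq2 gave 15. LM1 and LM9 versus HR1 already uses all tumours, so it has no such fit. With single tumours left out the counts ranged from 11 to 23, 7 to 22, 7 to 24 and 1 to 23 in the 4 comparisons. In the fit that drops a tumour, its model has fewer tumours. The replicate number as a block gave 15, 13, 14 and 7 genes. The labels number the tumours 1 to 3. Deviations of same-numbered tumours from their model's mean had correlations from −0.11 to 0.14, except 0.39 between LM1 and LM9 replicate 3. Whether same-numbered tumours share more than a number is not given in the labels, so the pairing was not used in the main fit.

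Values that changed sign were close to 0 or had wide intervals and had not been called. For LM1 versus HR1, *Insig1* was 0.0755 with library size only, 0.12 with limma-voom, 1.9e-05 with no filter and 0.0628 with the replicate block. *Acaca* in LM9 versus LM1 was −0.012 with library size only. *Cd36* in LM1 and LM9 versus HR1 was 0.039 with library size only, 0.0279 with limma-voom and 0.0302 with the block. With single tumours left out, the ranges for LM1 versus HR1 were −0.18 to 0.46 for *Srebf2*, −0.31 to 0.32 for *Insig1*, −0.31 to 0.74 for *Sqle*, −0.15 to 0.011 for *Acaca*, −0.47 to 0.13 for *Cd36* and −0.0666 to 0.48 for *Sc5d*. For LM9 versus HR1 they were −0.0225 to 0.25 for *Scap*, −0.0793 to 0.67 for *Hmgcs1*, −0.0864 to 0.0058 for *Acaca*, −0.22 to 0.24 for *Cd36* and −0.12 to 0.30 for *Acss2*. For LM1 and LM9 together they were −0.51 to 0.25 for *Hmgcs1*, −0.30 to 0.17 for *Cd36* and −0.39 to 0.37 for *Fabp5*, and for LM9 versus LM1 −0.0372 to 0.12 for *Acaca* and −0.0778 to 0.52 for *Cd36*. The causes were not tested. With 3 tumours per model, a gene that did not pass the test is not shown to be unchanged. In simulated counts, which had the same spread in all models, changes near 1 on the log2 scale were often missed.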
